A study of Mus musculus with 12 samples.

Results

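The genes of MHC class II antigen presentation were followed in macrophages with and without *Treml4*, before and after lipopolysaccharide (LPS). The group was chosen by gene symbol and holds 8 of the 43280 genes in the deposited table, namely *H2-Aa*, *H2-Ab1*, *H2-Eb1*, *Cd74*, *H2-DMa*, *H2-DMb1*, *H2-DMb2* and *Ciita*. All cells were bone marrow-derived macrophages (BMDM), grown from C57BL6 mouse bone marrow in M-CSF, the growth factor that turns marrow progenitors into macrophages. They came from wild type (wt) or *Treml4*-/- mice, which lack a receptor of the TREM family, and were left with vehicle (M0) or were given LPS, a component of the outer membrane of bacteria that drives M1 activation, at 100 ng/ml for 8 h (M1-8 h) or 12 h (M1-12 h). Each of the 6 conditions had 2 biological replicates, which gave 12 poly(A) RNA-seq libraries. The sources used here give neither the age or sex of the marrow donors, nor whether libraries with the same replicate number shared an animal, nor how the *Treml4* allele was made. LPS and vehicle were the only treatments named in the labels, while the paper elsewhere describes M1 cells as given LPS with interferon gamma.

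MHC class II molecules display peptides from endocytosed proteins to CD4+ T cells. An alpha and a beta chain pair in the endoplasmic reticulum with the invariant chain, which the protein product of *Cd74* supplies and which blocks the peptide groove until it is cut down in the endosome. There H2-DM exchanges the last invariant chain fragment for peptide. *Ciita* encodes the coactivator without which the genes for the chains, the invariant chain and H2-DM are barely transcribed. Macrophages at rest carry little class II, and interferon gamma raises it through *Ciita*.

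The promoters of class II genes carry a Y box, bound by the NF-Y factor, and upstream of it an X box bound by the RFX complex, on which CIITA assembles. RefSeq promoter windows (GRCm38.p6, 300 bases around each start) were searched for 5 of the 8 genes. Letters searched on both strands were ATTGG for the Y box and AGNAACNG for the core of the X box. To show where these letters lie in 2 chain genes and 2 H2-DM genes, 4 stretches of 110 bases, each ending 31 bases before the annotated start, are printed 5′ to 3′ with matches to either motif in capitals.
*H2-Aa* (chr17:34287854-34287963, minus strand): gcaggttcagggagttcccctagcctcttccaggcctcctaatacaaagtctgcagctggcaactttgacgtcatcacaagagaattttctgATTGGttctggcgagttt
*H2-Eb1* (chr17:34305727-34305836, plus strand): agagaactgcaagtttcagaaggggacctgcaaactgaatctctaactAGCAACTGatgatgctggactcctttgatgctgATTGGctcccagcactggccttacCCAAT
*H2-DMb1* (chr17:34153051-34153160, plus strand): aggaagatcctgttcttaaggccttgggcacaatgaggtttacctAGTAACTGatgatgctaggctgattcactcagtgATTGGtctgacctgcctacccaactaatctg
*H2-DMb2* (chr17:34145109-34145218, plus strand): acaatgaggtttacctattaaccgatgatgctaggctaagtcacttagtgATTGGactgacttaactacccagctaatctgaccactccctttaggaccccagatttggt
The Y box letters began 48 bases before the start in *H2-Aa*, 59 in *H2-Eb1*, 61 in *H2-DMb1* and 90 in *H2-DMb2*. The X box letters lay upstream of them in *H2-Eb1*, 92 bases before the start, and in *H2-DMb1*, 95 bases before it. Neither *H2-Aa* nor *H2-DMb2* had the X box letters in its window. An X box with other letters would be missed by this search. *H2-DMa*, with 2 annotated starts, had the Y box letters 198 bases before 1 of them. Letters this short are common, since 37.4% of 32851 mouse promoters held ATTGG, 17.4% held AGNAACNG and 6.51% held both.

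Between 48008751 and 58500792 reads were counted per library, so that the floor of 3 reads was worth 0.0513 to 0.0625 CPM (reads of a gene scaled to a common library total). The targeted gene matched its labels, with *Treml4* at 3.95 to 13.2 CPM in the 6 wt libraries and 0 reads in the 6 *Treml4*-/- libraries. Of 7 macrophage markers in the table, *Csf1r*, *Cd68*, *Lyz2* and *Itgam* were each above 750 CPM in every library. The B cell marker *Pax5* reached 0.0404 CPM at the highest, and the 5 B cell markers together had 4.39 to 6.48 CPM at M0, almost all of it *Cd79b*, and at most 0.727 CPM after LPS. The 7 T and NK cell markers summed to no more than 5.89 CPM, mainly *Cd4*. In bulk RNA, more cells that express a gene and more RNA of it per cell cannot be told apart.

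The wt replicate 2 libraries stood apart from the others in several of these genes. Of 12086 genes tested, 8 (0.0662%) were at least 1.5-fold higher in wt replicate 2 than in wt replicate 1 at all 3 time points, and 4 of these 8 were *H2-Aa*, *H2-Ab1*, *H2-Eb1* and *Cd74*. The other 4 were *Itgax*, which encodes the integrin CD11c of dendritic cells and some macrophages, *Mycl*, a transcription factor of dendritic cells, *H2-M2* and *Lrrc32*. Another 8 genes were as consistently lower in wt replicate 2, namely *Cd109*, *Eif2s3y*, *Eps8l1*, *Itga6*, *Mid1*, *Mrc1*, the mannose receptor, *Pf4* and *Stmn1*. Between the 2 *Treml4*-/- replicates only 1 gene was higher and 1 lower by this measure, neither a class II gene. The ratio of wt replicate 2 to wt replicate 1 ran from 1.90 to 2.75 in *H2-Aa*, from 1.58 to 2.66 in *H2-Ab1*, from 1.92 to 2.86 in *H2-Eb1* and from 1.60 to 2.67 in *Cd74*. It was smaller in *H2-DMa* (1.20 to 1.48), *H2-DMb1* (1.20 to 1.29) and *Ciita* (1.17 to 1.24), and in *Treml4*-/- cells the ratio of the 8 genes stayed between 0.62 and 1.14. The 9 dendritic cell markers moved with these libraries in part. Their summed level at M0 was 66.9 and 154 CPM in the wt replicates and 106 to 111 CPM in *Treml4*-/- cells, nearly all of it *Itgax*. Without *Itgax* the other 8 summed to 1.08 and 0.865 CPM in wt replicates 1 and 2 at M0, to 17.8 and 29.4 CPM after 8 h and to 17.8 and 33.3 CPM after 12 h, against 18.0 to 21.6 CPM in *Treml4*-/- cells after LPS. *Flt3* and *Zbtb46*, which define dendritic cells, were at most 0.713 and 0.337 CPM in any library. The 5 neutrophil markers went the opposite way at M0, with a sum of 50.7 CPM in wt replicate 1 and 19.6 CPM in wt replicate 2, against 61.4 and 63.9 CPM in *Treml4*-/- cells. After LPS they summed to 32.5 to 44.9 CPM in wt and 38.4 to 65.6 CPM in *Treml4*-/- cells. The ratio of wt replicate 2 to wt replicate 1 at M0 was 0.35 for *Mpo* and 0.38 for *Elane*, enzymes of neutrophil granules and their precursors. *Mpo* and *Elane* differed by -1.09 and -1.10 between wt and *Treml4*-/- cells at M0 (unadjusted p = 0.0181 and 0.00711, adjusted p = 1 and 0.911, limma). The part of other cell types in the class II levels was not tested. Where leaving out the 3 wt replicate 2 libraries changed a call, the value without them is given too.

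**Figure D1:**
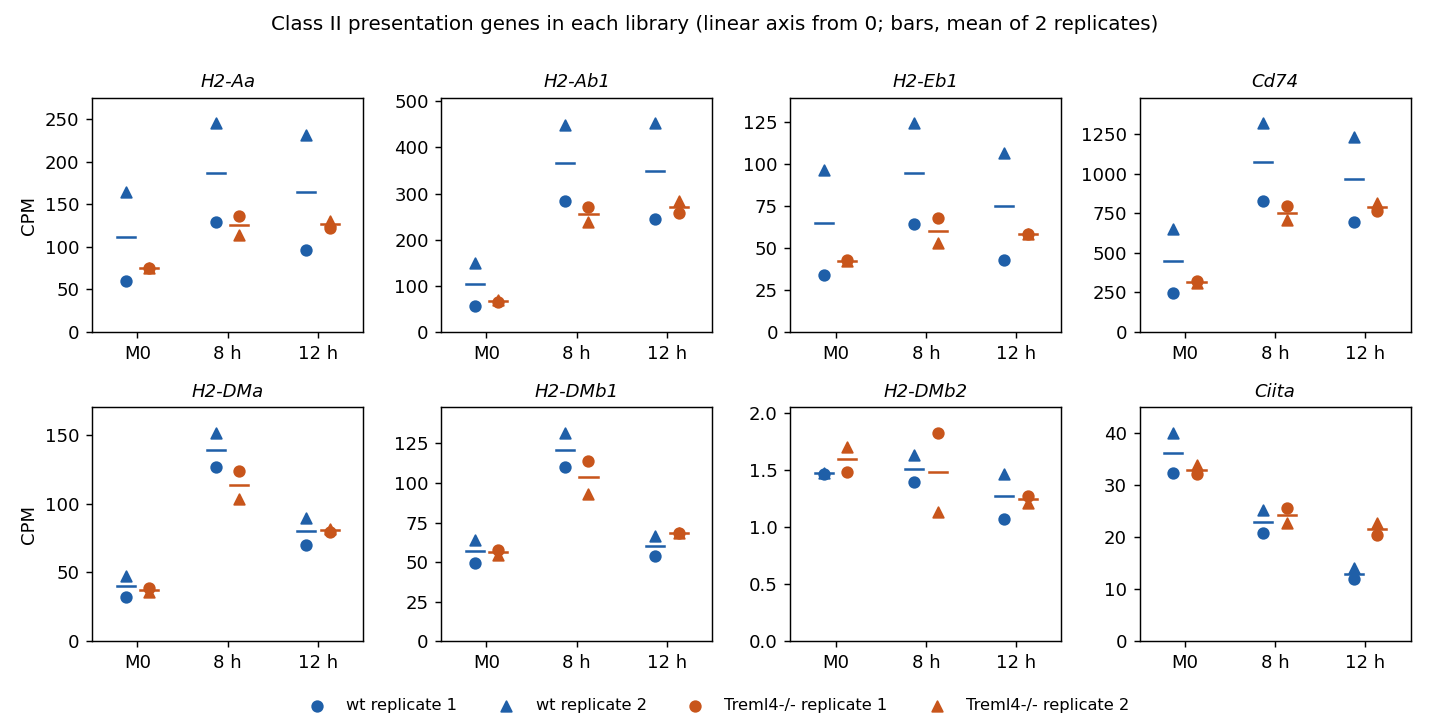
Levels of the 8 class II presentation genes in each of the 12 libraries, in CPM on linear axes that start at 0, at M0, 8 h and 12 h of LPS. Circles and triangles are replicates 1 and 2, horizontal bars are means of the 2, blue is wt and orange *Treml4*-/-. The blue triangles of *H2-Aa*, *H2-Ab1*, *H2-Eb1* and *Cd74* lie highest at each time point, and *Ciita* declines from M0 to 12 h.

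Of the 8 genes, 7 were well expressed, and *H2-DMb2* was close to the 1 CPM needed for testing. Levels between genes were compared as CPM per kilobase (kb) of exon. The length was that of all annotated exons of a gene joined, from the GENCODE M21 annotation of GRCm38. *Cd74* led in each of the 6 conditions, with 188 ± 5.81 CPM per kb (SD, n = 2) in *Treml4*-/- M0 cells and 266 ± 171 (SD, n = 2) in wt M0 cells. In *Treml4*-/- M0 cells *H2-DMb1* followed at 33.5 ± 1.37 CPM per kb, then *H2-Ab1* at 26.2 ± 0.827, *H2-Eb1* at 21.9 ± 0.181, *H2-Aa* at 19.7 ± 0.0679 and *H2-DMa* at 10.7 ± 0.627 (SD, n = 2 each), and no neighbours in this order overlapped. The order depends on the lengths used, 1.681 kb for *H2-DMb1* and 3.798 kb for *H2-Aa*. By mean CPM in the same cells *Cd74* also led, followed by *H2-Aa* at 74.8, *H2-Ab1* at 67.4 and *H2-DMb1* at 56.2. In wt M0 cells the replicates of *H2-Ab1*, *H2-DMb1*, *H2-Eb1* and *H2-Aa* overlapped one another across libraries. Within each wt M0 library *H2-Ab1* was above *H2-Eb1* and *H2-Eb1* above *H2-Aa*, as in *Treml4*-/- M0 cells. These values were 21.9, 17.3 and 15.8 CPM per kb in replicate 1 and 58.3, 49.5 and 43.3 in replicate 2. *H2-DMb1* was above them in replicate 1 at 29.5 and below them in replicate 2 at 38.1. The place of *H2-DMb1* in wt M0 cells could thus not be told. *Ciita* was 7th in every condition, at 1.36 to 3.81 CPM per kb as group means, and *H2-DMb2* was last at 0.711 to 0.913. After LPS *H2-Ab1* was second in every condition, at 99.6 to 143 CPM per kb. All values below are CPM of each library, without the length, or differences of log2(CPM + 1), where the added 1 shrinks the change of a gene as low as *H2-DMb2*.

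LPS was compared with M0 to see how each class II gene responds to activation. Genes were called differentially expressed (DEG) at a Benjamini-Hochberg adjusted p under 0.05 in limma, fitted across all 12086 genes and 12 libraries, with a change of at least 1.4-fold. After 8 h, 5 of the 8 genes were DEG in wt cells, 4 higher and 1 lower, and 4 were DEG in *Treml4*-/- cells, all higher. *H2-Ab1*, *H2-DMa*, *H2-DMb1* and *Cd74* rose in both genotypes. The LPS response covered most of the transcriptome, with 76.9% of all genes DEG in wt (16.3% higher, 60.6% lower) and 75.9% in *Treml4*-/- cells (17.7% higher, 58.1% lower). The median of the 8 genes was 0.96 in wt and 0.80 in *Treml4*-/- cells on the log2 scale, beside -0.74 and -0.70 over all genes. After 12 h, 4 of the 8 were DEG in each genotype, 3 higher and 1 lower, among 76.7% of all genes in wt (16.2% higher, 60.4% lower) and 75.7% in *Treml4*-/- cells (16.1% higher, 59.6% lower). For the 8 genes the median was then 0.42 (wt) and 0.60 (*Treml4*-/-), beside -0.77 and -0.74 over all genes.

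Because the median gene fell by 0.70 to 0.77 when libraries were scaled to their totals, the choice of scaling matters for these comparisons. With the median of ratios, which centres the median gene near 0, the DEG split evenly, with 3734 higher and 3734 lower after 8 h in wt, 3749 and 3928 in *Treml4*-/- cells, 3976 and 3997 after 12 h in wt, and 3910 and 3929 in *Treml4*-/- cells. Of the 8 class II genes, 7 in wt and 6 in *Treml4*-/- cells were then DEG after 8 h, all higher, and 6 were in each genotype after 12 h, all higher but *Ciita* in wt.

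**Figure D2:**
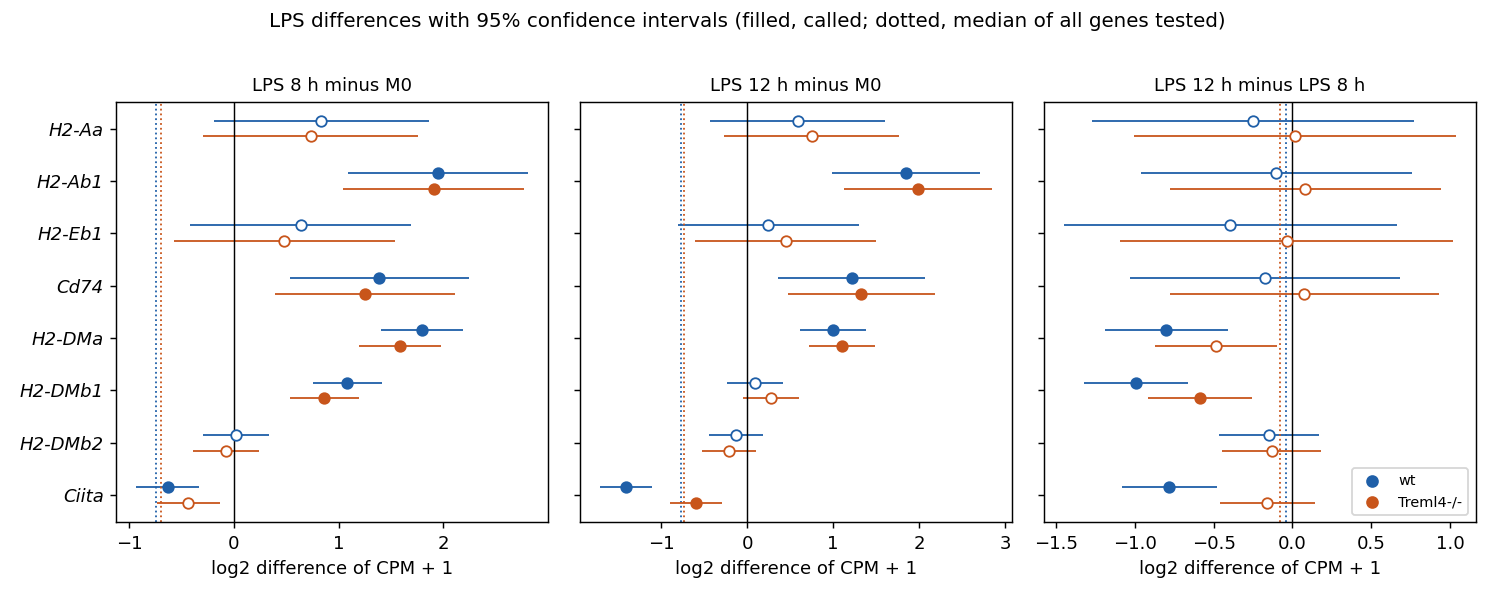
Log2 differences of CPM + 1 for each of the 8 genes, with 95% confidence intervals from limma, for 8 h against M0, 12 h against M0 and 12 h against 8 h, blue wt and orange *Treml4*-/-. Filled points are DEG, open points are not, the solid line marks 0 and dotted lines mark the median of all genes tested. *H2-Ab1*, *H2-DMa* and *Cd74* lie above 0 at both LPS times, while *Ciita* lies below 0.

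The chain genes sit side by side on chromosome 17 of GRCm38. *H2-Ab1* (chr17:34257689-34269419, plus strand) and *H2-Aa* (chr17:34282744-34287823, minus strand) encode the beta and alpha chains of I-A, the class II molecule that C57BL6 mice display. *H2-Ab1* had 56.3 and 150 CPM in the wt M0 replicates, 285 and 450 after 8 h and 245 and 453 after 12 h. In *Treml4*-/- cells it had 65.9 and 68.9 CPM at M0, 272 and 239 after 8 h and 258 and 283 after 12 h. No LPS library of either genotype overlapped an M0 library of *H2-Ab1*. Its mean level rose 3.56-fold after 8 h in wt (log2 difference 1.95, SE 0.39, adjusted p = 6.2e-04, limma) and 3.80-fold in *Treml4*-/- cells (1.91, SE 0.39, adjusted p = 7.4e-04, limma). After 12 h it stood 3.39-fold over M0 in wt (1.85, adjusted p = 9.1e-04, limma) and 4.02-fold in *Treml4*-/- cells (1.99, adjusted p = 5.4e-04, limma).

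*H2-Aa* had smaller differences from M0 than *H2-Ab1*. It had 59.8 and 165 CPM in the wt M0 replicates, 129 and 245 after 8 h and 96.5 and 232 after 12 h. The *Treml4*-/- values were 75.0 and 74.7 CPM at M0, 137 and 115 after 8 h and 123 and 130 after 12 h. The *Treml4*-/- libraries separated cleanly by LPS, while the wt M0 replicate 2 library was above the wt LPS libraries of replicate 1. The log2 difference of *H2-Aa* after 8 h was 0.84 in wt (95% interval -0.19 to 1.86, adjusted p = 0.111, limma) and 0.73 in *Treml4*-/- cells (-0.29 to 1.75, adjusted p = 0.160, limma). After 12 h it was 0.59 in wt and 0.75 in *Treml4*-/- cells (adjusted p = 0.254 and 0.152, limma). The spread of the wt replicates entered all of these tests, since 1 spread per gene was estimated over the 6 conditions. In a planned fit of only the groups compared, *H2-Aa* was a DEG in *Treml4*-/- cells (0.73 and 0.75, adjusted p = 4.9e-04 and 7.0e-07, limma) and not in wt. With the replicate number fitted within each genotype, it was a DEG in all 4 LPS comparisons (adjusted p = 1.9e-04 to 0.00194, limma), though the labels state no pairing. Without the 3 libraries of wt replicate 2, an alternative chosen after the data were seen, *H2-Aa* was a DEG in *Treml4*-/- cells at the same differences of 0.73 and 0.75 (adjusted p = 1.0e-04 and 8.9e-05, limma). In wt replicate 1 alone it was then higher by 1.10 after 8 h and 0.68 after 12 h (adjusted p = 9.5e-05 and 0.00146, limma), where each wt condition is 1 library assumed to vary like the *Treml4*-/- ones. Under median of ratios scaling with all 12 libraries *H2-Aa* was a DEG in each of the 4 LPS comparisons, higher by 1.45 to 1.67 (adjusted p = 0.00655 to 0.0137, limma).

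*H2-Eb1* (chr17:34305867-34316674, plus strand), the beta chain of I-E, had 33.7 and 96.3 CPM in the wt M0 replicates, 64.5 and 124 after 8 h and 43.1 and 107 after 12 h. *Treml4*-/- cells had 42.7 and 42.2 CPM at M0, 67.6 and 52.8 after 8 h and 58.4 and 58.1 after 12 h. The wt M0 and LPS libraries overlapped, and the *Treml4*-/- ones did not. Its log2 difference was 0.64 and 0.48 after 8 h in wt and *Treml4*-/- cells (adjusted p = 0.227 and 0.359, limma) and 0.25 and 0.45 after 12 h (adjusted p = 0.641 and 0.397, limma). With the replicate number fitted within each genotype, *H2-Eb1* was a DEG after 8 h in wt alone (0.64, adjusted p = 0.00171, limma). Without wt replicate 2 at every time point it was a DEG after 8 h in wt (0.92, adjusted p = 8.1e-04, limma). Scaled by the median of ratios, *H2-Eb1* passed as DEG after 8 h in wt and *Treml4*-/- cells (1.47 and 1.22, adjusted p = 0.0158 and 0.0374, limma) and after 12 h in *Treml4*-/- cells (1.25, adjusted p = 0.0322, limma). The C57BL6 strain is known to carry a defective gene for the I-E alpha chain, and the annotated pseudogene *H2-Ea-ps* had at most 1 read in any library. An antisense gene, *Gm20513*, overlaps *H2-Eb1*, and it is not given whether reads were counted by strand, so reads of the 2 could not be told apart.

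*Cd74*, the invariant chain, was the most abundant of the 8. It had 244 and 650 CPM in the wt M0 replicates, 827 and 1319 after 8 h and 695 and 1234 after 12 h. *Cd74* in *Treml4*-/- cells was at 322 and 308 CPM at M0, 796 and 709 after 8 h and 768 and 817 after 12 h. All 8 LPS libraries were above all 4 M0 libraries. The mean rose 2.40-fold after 8 h in wt (log2 difference 1.39, SE 0.39, adjusted p = 0.00565, limma) and 2.39-fold in *Treml4*-/- cells (1.25, SE 0.39, adjusted p = 0.0104, limma). After 12 h it was 2.16-fold over M0 in wt (1.22, adjusted p = 0.0120, limma) and 2.52-fold in *Treml4*-/- cells (1.33, adjusted p = 0.00748, limma). The wt calls rested on single libraries. Without wt M0 replicate 1 the difference was 0.68 after 8 h and 0.51 after 12 h (adjusted p = 0.0658 and 0.155, limma), without wt 8 h replicate 2 it was 1.05 (adjusted p = 0.0550, limma), and without wt 12 h replicate 2 it was 0.80 (adjusted p = 0.120, limma).

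H2-DM, the peptide editor, is a pair of an alpha chain from *H2-DMa* and a beta chain from *H2-DMb1* or *H2-DMb2*, all 3 on chromosome 17. *H2-DMa* (chr17:34119541-34139101, plus strand) had 32.2 and 47.5 CPM in the wt M0 replicates, 127 and 152 after 8 h and 70.0 and 89.6 after 12 h. The *Treml4*-/- libraries had 38.6 and 35.5 CPM, then 124 and 104, then 79.7 and 81.6. In both genotypes M0 was lowest, 8 h highest and 12 h between them, with no overlap of time points. *H2-DMa* rose 3.49-fold after 8 h in wt (log2 difference 1.80, SE 0.18, adjusted p = 1.9e-06, limma) and 3.07-fold in *Treml4*-/- cells (1.59, SE 0.18, adjusted p = 5.4e-06, limma). It remained 2.00-fold over M0 after 12 h in wt (1.00, adjusted p = 2.4e-04, limma) and 2.18-fold in *Treml4*-/- cells (1.10, adjusted p = 1.1e-04, limma). *Brd2*, on the opposite strand, and other annotated genes overlap *H2-DMa*, so without knowledge of the strand setting reads in the overlap could belong to either.

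*H2-DMb1* (chr17:34153072-34160230, plus strand) had 49.5 and 64.0 CPM in the wt M0 replicates, 110 and 132 after 8 h and 54.0 and 66.6 after 12 h. In *Treml4*-/- cells it had 57.9 and 54.6 CPM at M0, 114 and 93.1 after 8 h and 68.1 and 68.5 after 12 h. The rise was transient in wt, where the 12 h libraries overlapped those at M0. It measured 2.13-fold after 8 h in wt (log2 difference 1.08, SE 0.15, adjusted p = 3.3e-05, limma) and 1.84-fold in *Treml4*-/- cells (0.86, SE 0.15, adjusted p = 2.1e-04, limma). After 12 h the difference from M0 was 0.09 in wt and 0.28 in *Treml4*-/- cells (adjusted p = 0.590 and 0.105, limma). Under the other scaling these last differences were 0.95 and 1.09 and *H2-DMb1* was a DEG (adjusted p = 2.6e-04 and 8.8e-05, limma).

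*H2-DMb2* (chr17:34143307-34151555, plus strand) had 56 to 107 reads per library, or 1.07 to 1.83 CPM, with no separation of conditions. Its log2 differences from M0 lay between -0.21 and 0.02 (adjusted p = 0.192 to 0.884, limma), and with median of ratios scaling between 0.26 and 0.51, where it was a DEG after 8 h in wt alone (0.51, adjusted p = 0.00804, limma). *H2-DMb1* and *H2-DMb2* are close paralogs. As reads were 126 bases long, their annotated transcripts were cut into words of 126 bases, of which *H2-DMb1* shared 7.21% with *H2-DMb2* and *H2-DMb2* shared 6.43% with *H2-DMb1*. How the counting treated such reads is not given, so the low *H2-DMb2* level is uncertain.

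*Ciita* (chr16:10480059-10528418, plus strand), the coactivator of all the genes above, went the other way. It had 32.4 and 40.2 CPM in the wt M0 replicates, 20.9 and 25.2 after 8 h and 11.9 and 14.0 after 12 h. In *Treml4*-/- cells it had 32.2 and 33.9 CPM at M0, 25.7 and 22.8 after 8 h and 20.5 and 22.8 after 12 h. All 8 LPS libraries were below all 4 M0 libraries, and in wt the 3 time points did not overlap. Its mean was 1.58-fold lower after 8 h in wt (log2 difference -0.63, SE 0.14, adjusted p = 0.00109, limma). At 1.36-fold lower in *Treml4*-/- cells (-0.43, SE 0.14, adjusted p = 0.0115, limma) it passed the test there but not the 1.4-fold minimum, and without wt M0 replicate 2 the same was true in wt (-0.48, adjusted p = 0.0125, limma). By 12 h it was 2.80-fold lower in wt (-1.41, SE 0.14, adjusted p = 1.6e-06, limma) and 1.53-fold lower in *Treml4*-/- cells (-0.59, SE 0.14, adjusted p = 0.00169, limma). These falls are relative to library totals. With median of ratios scaling *Ciita* was 0.19 and 0.29 higher after 8 h in wt and *Treml4*-/- cells and 0.20 higher after 12 h in *Treml4*-/- cells (adjusted p = 0.295, 0.103 and 0.246, limma), so that its direction turned. After 12 h in wt it stayed lower at -0.58 (adjusted p = 0.00459, limma). *Ciita* is known to use alternative promoters in different cell types, which counts per gene cannot tell apart, and it overlaps *Dexi* on the opposite strand.

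Between 8 h and 12 h, 3 of the 8 genes fell in wt cells and 1 fell in *Treml4*-/- cells, among 31.6% and 32.3% of all genes called in wt and *Treml4*-/- cells (in wt 14% were higher and 17.6% lower, in *Treml4*-/- cells 12.9% and 19.4%). *H2-DMb1* fell in both, by 0.99 on the log2 scale in wt (adjusted p = 3.1e-04, limma) and by 0.59 in *Treml4*-/- cells (adjusted p = 0.00797, limma). *H2-DMa* fell by 0.80 in wt (adjusted p = 0.00359, limma), and its difference of -0.48 in *Treml4*-/- cells (adjusted p = 0.0423, limma) was just short of 1.4-fold. Without *Treml4*-/- 8 h replicate 2 it was a DEG at -0.61 (adjusted p = 0.0454, limma). *Ciita* fell by 0.78 in wt (adjusted p = 8.4e-04, limma) and differed by -0.16 in *Treml4*-/- cells (adjusted p = 0.363, limma). *H2-Ab1*, *H2-Aa*, *H2-Eb1* and *Cd74* were not DEG between the LPS times, with differences from -0.39 to 0.08 (adjusted p = 0.530 to 0.982, limma). Without the wt replicate 2 libraries *H2-Eb1* was a DEG between them in wt, lower by -0.57 (adjusted p = 0.0221, limma). The *H2-DMb1* call in *Treml4*-/- cells was lost without *Treml4*-/- 8 h replicate 1 (-0.44, adjusted p = 0.0668, limma).

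Ratios of 2 genes within a library cancel the library scaling and much of the excess in wt replicate 2. They were chosen after the values were seen, so they are given as a description, and the exact permutation tests run on them are not used as support. *H2-Ab1* and *H2-Aa*, which encode partner chains, had near equal CPM at M0, with *H2-Ab1* over *H2-Aa* at 0.878 to 0.941 in the 4 M0 libraries. The ratio was 1.83 to 2.20 in the 4 libraries after 8 h and 1.95 to 2.54 after 12 h. *H2-Eb1* over *H2-Aa* went from 0.563 to 0.585 at M0 down to 0.461 to 0.506 after 8 h and 0.446 to 0.476 after 12 h. *Cd74* over *H2-Ab1* went from 4.32 to 4.89 at M0 to 2.91 to 2.96 and 2.73 to 2.98. *H2-DMa* over *H2-DMb1* went from 0.650 to 0.743 at M0 to 1.09 to 1.15 and 1.17 to 1.35. None of these ratios overlapped between M0 and LPS. *H2-DMa* over *H2-DMb1* was higher in wt than in *Treml4*-/- cells after 8 h (1.15 in both against 1.09 and 1.11) and after 12 h (1.30 and 1.35 against 1.17 and 1.19). So was *H2-Eb1* over *H2-Aa* after 8 h (0.499 and 0.506 against 0.495 and 0.461). *Cd74* over *H2-Ab1* was lower in wt at M0 (4.32 and 4.34 against 4.89 and 4.47) and after 12 h (2.83 and 2.73 against 2.98 and 2.88). In the other cases the genotypes overlapped, and none of these genotype differences was tested.

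**Figure D3:**
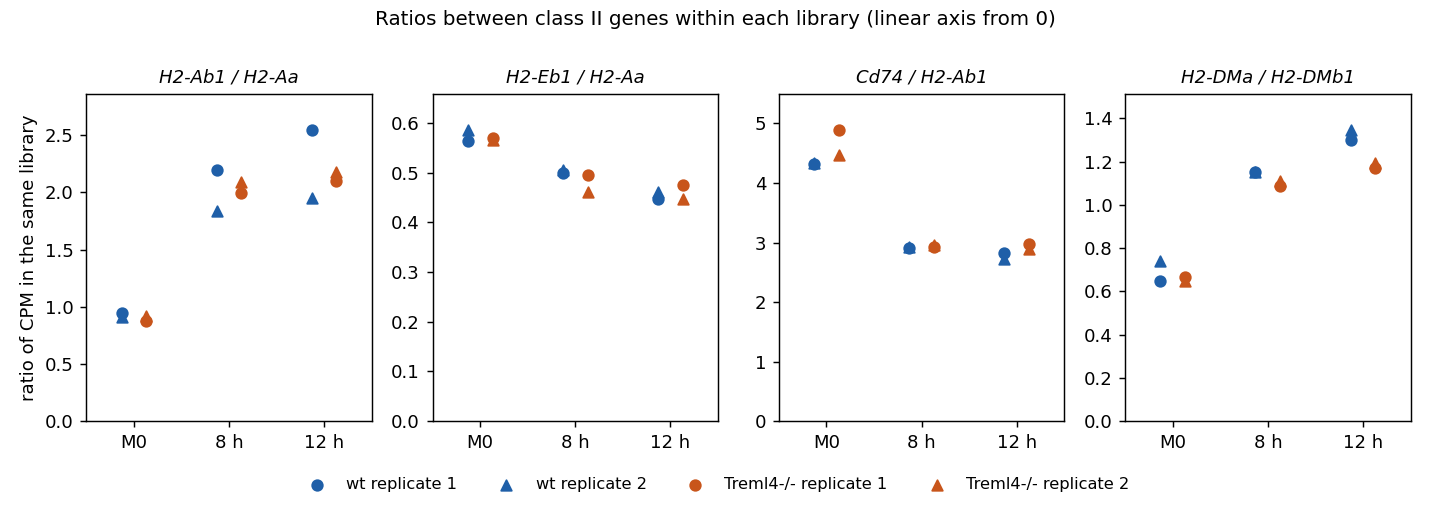
Ratio of CPM of 2 class II genes within the same library, on linear axes from 0, at M0, 8 h and 12 h of LPS, with symbols for genotype and replicate. *H2-Ab1* over *H2-Aa* and *H2-DMa* over *H2-DMb1* are higher in all 8 LPS libraries than in all 4 M0 libraries, and the other ratios are lower.

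Across the 12 libraries the levels of log2(CPM + 1) of *H2-Ab1* and *Cd74* had a Pearson r of 0.99, *H2-Aa* and *H2-Eb1* of 0.97, and *H2-DMa* and *H2-DMb1* of 0.88, while *Ciita* had r from -0.66 to -0.07 with the other genes apart from *H2-DMb2*. The points are libraries that share conditions and the wt replicate 2 libraries, so these are descriptions only. By the same measure, the other genes whose pattern was most like the mean of the standardized *H2-Aa*, *H2-Ab1*, *H2-Eb1* and *Cd74* levels were *Gnl1* (0.95), *Esrra* (0.91), *Comp* (0.90), *Phc2* (0.90), *Rhoc* (0.88), *H2-D1*, a class I heavy chain (0.88), *Mocs1* (0.88), *Anxa4* (0.87), *Nfkb2* (0.86) and *Acaa1a* (0.86). *H2-D1* had 2219 and 2892 CPM in the wt M0 replicates and 3293 and 3613 after 8 h, so that replicate 2 was higher there too, but by less than in the class II chains.

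The genotypes were compared at each time point to see whether *Treml4* affects class II expression. None of the 8 genes was a DEG at M0, after 8 h, after 12 h or in the mean of the 3 time points by limma, nor by limma with voom weights on the reads. At an unadjusted p under 0.05 there were 0, 0, 1 and 1 of the 8, the 1 being *Ciita* both times. Over all genes tested, 3.35%, 21.0%, 7.55% and 20.1% were under that p in limma. The paper used another test, DESeq2, with the same cutoffs and reported more genes between genotypes in M1 cells. By limma here DEG were rare among all genes, at 0.0993% at M0 (0.0414% higher in wt, 0.0579% lower) and 0.091% after 8 h (0.0331% and 0.0579%). They made up 0.132% after 12 h (0.0496% and 0.0827%) and 0.414% in the mean (0.0827% and 0.331%). With median of ratios scaling these splits moved from 4 higher and 7 lower to 9 and 6 after 8 h, from 6 and 10 to 12 and 8 after 12 h, and from 10 and 40 to 26 and 24 in the mean, again with none of the 8 genes among them. The median of the 8 was 0.23 at M0, 0.38 after 8 h and 0.12 after 12 h, wt minus *Treml4*-/- on the log2 scale, beside -0.03, -0.07 and -0.05 over all genes.

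*H2-Aa*, *H2-Ab1*, *H2-Eb1* and *Cd74* had higher means in wt at each time point, but with wide spread between the wt replicates. At M0 and after 12 h both *Treml4*-/- libraries were between the wt replicates for each of these 4 genes. After 8 h 21.0% of all genes had an unadjusted p under 0.05 in limma, and how many separated by library was not counted. At that time both *Treml4*-/- libraries were below both wt libraries for *H2-Ab1*, *Cd74* and also *H2-DMa*, and 1 of 2 was for *H2-Aa* and *H2-Eb1*. With 2 libraries against 2, such a separation can easily arise without a true difference, so no result is drawn from it. The differences ran from 0.34 to 0.44 at M0 (adjusted p = 1, limma), from 0.47 to 0.58 after 8 h (adjusted p = 0.482 to 0.538, limma) and from 0.22 to 0.30 after 12 h (adjusted p = 0.925 to 0.962, limma). Their intervals were wide. For *H2-Aa* at M0 the interval was -0.62 to 1.43, and for *Cd74* after 8 h it was -0.38 to 1.33, so that a difference of over 2-fold in wt's favour was not excluded for either of the 2. Without the 3 wt replicate 2 libraries, 1 wt library was left at each time point. The 4 genes were then lower in wt at M0, by -0.25 to -0.37, and after 12 h, by -0.14 to -0.43. After 8 h they remained higher in wt, but only by 0.05 to 0.16. Without wt M0 replicate 1 alone, *H2-Ab1* and *Cd74* were DEG in the mean of the 3 time points, higher in wt by 0.64 and 0.58 (adjusted p = 0.0388 and 0.0466, limma).

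*H2-DMa*, *H2-DMb1* and *H2-DMb2* had narrower intervals. The difference of *H2-DMa* was 0.08 at M0 (95% interval -0.31 to 0.47), 0.29 after 8 h (-0.10 to 0.68) and -0.03 after 12 h (-0.41 to 0.36). For *H2-DMb1* it was 0.00 at M0 (-0.33 to 0.33), 0.22 after 8 h (-0.11 to 0.55) and -0.19 after 12 h (-0.51 to 0.14). *H2-DMb2* differed by -0.07 (-0.39 to 0.25), 0.03 (-0.29 to 0.35) and 0.01 (-0.30 to 0.33). A change of 2-fold lies outside each of these intervals.

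*Ciita* had the lowest p of the 8 genes between genotypes, after 12 h. At M0 and 8 h its libraries overlapped, with differences of 0.12 and -0.08 (adjusted p = 1 and 0.775, limma). After 12 h the 2 wt libraries, at 11.9 and 14.0 CPM, were below the *Treml4*-/- ones at 20.5 and 22.8 CPM. How many of all genes separated by library at that time was not counted. The mean of *Ciita* was 1.67-fold lower in wt. The log2 difference was -0.70 (SE 0.14, 95% interval -0.997 to -0.395, unadjusted p = 3.6e-04 in limma), and it failed the correction over all genes (adjusted p = 0.128, limma). Without 1 of the 4 libraries in turn it lay between -0.80 and -0.59. In the mean of the 3 time points it was -0.22 (unadjusted p = 0.0194, adjusted p = 0.194, limma). The difference in the LPS effect between genotypes was tested as an interaction. None of the 8 genes was a DEG at 8 h or 12 h, among 0.00827% of all genes at each. At an unadjusted p under 0.05 there were 0 and 1, beside 6.67% and 3.82% of all genes. That 1 was *Ciita* at 12 h, at -0.82 (SE 0.19, unadjusted p = 0.00141, adjusted p = 0.999, limma), which means a larger fall in wt that did not pass the correction.

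**Figure D4:**
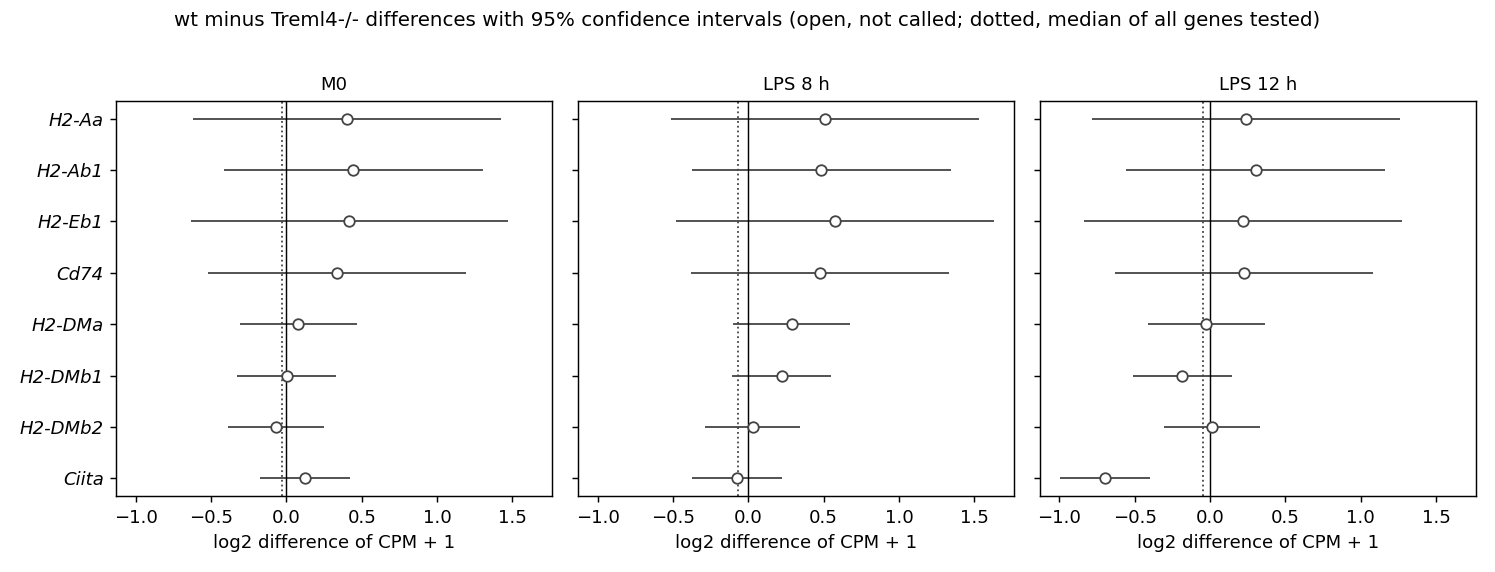
Differences of wt minus *Treml4*-/- in log2 CPM + 1 with 95% confidence intervals from limma, at M0, 8 h and 12 h of LPS. Open points are not DEG, the solid line marks 0 and the dotted line the median of all genes tested. The intervals of the 8 genes include 0 except for *Ciita* at 12 h, at -0.70, which did not pass the correction over all genes.

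The other genes of the pathway were taken from written lists. Among further class II genes, *H2-Oa* and *H2-Ob*, the chains of H2-O, which holds H2-DM back, were low, at 0.984 to 3.22 and 0.374 to 1.33 CPM. *H2-Oa* had 1.00 and 0.984 CPM in the wt M0 replicates and 2.09 and 3.22 after 12 h and rose by 0.86 (adjusted p = 2.7e-04, limma), while in *Treml4*-/- cells it had 1.10 and 1.01 CPM and then 1.56 and 1.53 (0.31, adjusted p = 0.0806, limma). With median of ratios scaling *H2-Oa* was a DEG after 8 h in wt (0.73, adjusted p = 0.00126, limma) and after 12 h in wt (1.35, adjusted p = 7.9e-06, limma) and *Treml4*-/- cells (0.73, adjusted p = 0.00116, limma). *H2-Eb2* had at most 2 reads in any library, and *H2-Ea* was not analysed here. *H2-Ob* was no DEG after LPS with libraries scaled to their totals, and by the median of ratios it became one after 8 h in wt and *Treml4*-/- cells (0.55 and 0.70, adjusted p = 0.0133 and 0.00315, limma) and after 12 h in wt (0.67, adjusted p = 0.00409, limma).

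Of 7 genes for factors on class II promoters, 5 fell after 8 h in wt, 4 in *Treml4*-/- cells, and 3 in each genotype after 12 h, with none higher, where 60.6%, 58.1%, 60.4% and 59.6% of all genes were lower. *Rfxank* and *Rfxap*, subunits of the RFX complex, fell by 0.93 and 1.31 after 8 h in wt, and *Nfya* and *Nfyc*, subunits of NF-Y, by 1.10 and 1.18. *Rfx5*, the large RFX subunit, had 12.7 to 18.3 CPM in every library and differed by 0.21. The median of the list after 8 h was -0.93 in wt, close to the -0.74 of all genes. Scaled by the median of ratios, 2 of the 7 were higher, *Rfx5* and *Creb1*, and 1 was lower, *Rfxap*, after 8 h in wt.

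Of 9 tested genes of interferon gamma signalling, 5 rose and 2 fell after 8 h in each genotype, beside 16.3% of all genes higher and 60.6% lower in wt and 17.7% and 58.1% in *Treml4*-/- cells. *Irf1*, *Irf8* and *Jak2* rose by 3.55, 2.13 and 4.26 in wt and by 3.41, 1.79 and 4.59 in *Treml4*-/- cells. *Ifngr1*, a chain of the interferon gamma receptor, went from 136 to 161 CPM at M0 to 13.5 to 15.5 CPM after 8 h and fell by 3.39 in wt. *Ifng* itself, the ligand, had at most 1 read in any library. By the median of ratios 7 rose and 1 fell after 8 h in each genotype. *Ifngr2* and *Jak1* then also rose in wt, by 1.04 and 1.15, and *Usf1*, at -0.51 by totals, was at 0.32 and no DEG.

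Of 10 genes for endosomal processing, 6 fell and 1 rose after 8 h in each genotype, a share of lower genes near the 60.6% and 58.1% of all genes in wt and *Treml4*-/- cells. *Ifi30*, the thiol reductase GILT, fell by 1.20 in wt, and *Ctsd* and *Ctss*, the proteases cathepsin D and cathepsin S, fell by 1.54 and 0.82. *Ctss* trims the invariant chain. *Sppl2a*, the protease that clears its last membrane stub, rose by 2.08. By the median of ratios 4 rose and 1 fell in wt, with *Ctss* at 0.03 and *Ctsd* still lower by -0.69. Of 3 genes for class II turnover, 2 rose and 1 fell in each genotype at both LPS times, where 16.1% to 17.7% of all genes were higher. *March1*, a ubiquitin ligase that removes class II from the surface, had 23.2 to 26.2 CPM at M0 and 190 to 339 after 8 h, and rose by 3.09 in wt and 3.47 in *Treml4*-/- cells. *Cd83*, which opposes that ligase, had 10.5 to 13.9 CPM at M0, 166 to 225 after 8 h and 56.2 to 102 after 12 h, and rose by 4.10 after 8 h in wt. *March8* fell by 1.08 in wt after 8 h, and with median of ratios scaling it was at -0.25 and no DEG. Between genotypes limma called none of the 31 other pathway genes, neither at a single time point nor in the mean, and the lowest adjusted p was that of *Cd83* in the mean (0.37, adjusted p = 0.0623).

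**Figure D5:**
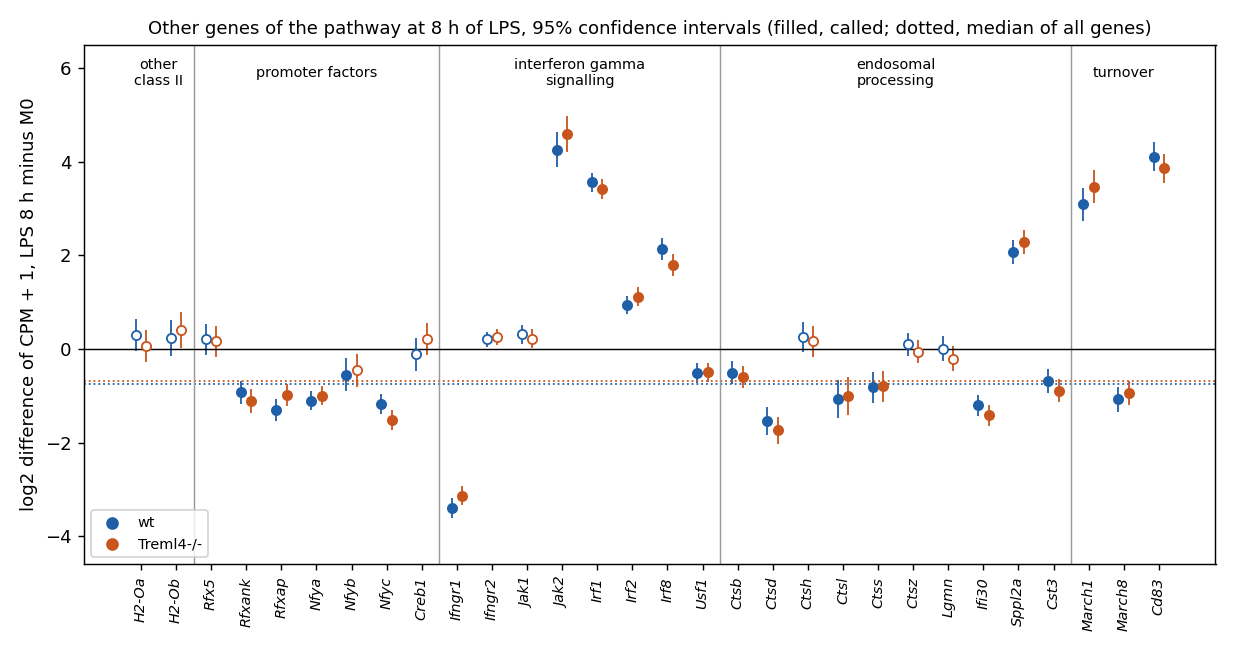
Log2 differences of CPM + 1, 8 h of LPS minus M0, with 95% confidence intervals from limma for other tested genes of the pathway, grouped by list, blue wt and orange *Treml4*-/-. Filled points are DEG, the solid line marks 0 and dotted lines the median of all genes. *Jak2*, *Irf1*, *March1* and *Cd83* lie highest and *Ifngr1* lowest, in both genotypes.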

How the data were processed

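Poly(A) RNA of 12 BMDM libraries was sequenced with a stranded kit as paired reads of 126 bases. The authors deposited 1 table of log2 CPM (reads scaled to a common library total) for 43280 genes. Per the labels STAR and the mm10 build were used. The annotation and the strand setting of the counting are not given in the sources used here. The deposited log2 values were turned back to CPM. Whole reads could be recovered for 100% of values within 0.01 read, with 0.25 reads added before the log, so the depth behind each value is known. Floors in reads cover counting error only, while the confidence intervals come from the limma fit and rest on the spread between replicates.

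The 12086 genes that reached 1 CPM in 2 or more libraries, all 8 members among them, were fitted with limma 3.58.1 in R 4.3.3 on log2(CPM + 1), with 1 mean for each of the 6 conditions, a trended prior and Benjamini-Hochberg adjustment. DEG had an adjusted p under 0.05 and at least 1.4-fold change. Both LPS times share their M0 libraries. Nothing says which replicates share animals, so p-values measure the spread between these samples. The fit was tested on simulated data. Sequences came from RefSeq, and Python 3.11.15 drew the figures.

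Described were the 8 members, from each pathway list up to 3 of the most changed genes in each direction and those with a defining role, and the 10 genes most like the chain genes and *Cd74*. Members and lists were chosen with earlier results of these data known. Alternatives were other pseudocounts, filters, scalings, sample sets and blocks, and limma with voom weights, which was chosen after the data were seen. The planned count tools were not run because the deposited unit is log2. Some listed genes, counted in their lists, and a promoter motif are not reported here.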

Additional observations from a re-analysis of the deposited data

Results flagged for a closer look

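The change of *Ciita* after 12 h of LPS was flagged for its difference between genotypes, at an unadjusted p under 0.05 in limma. It was -1.41 in wt and -0.59 in *Treml4*-/- cells on the log2 scale, a difference of -0.82 (SE 0.19, unadjusted p = 0.00141 in limma). It did not pass the correction over 12086 genes (adjusted p = 0.999, limma with Benjamini-Hochberg adjustment). Both wt libraries after 12 h, at 11.9 and 14.0 CPM, were below both *Treml4*-/- libraries, at 20.5 and 22.8 CPM. The share of all genes with such a separation was not counted. Without 1 of the 8 libraries in turn the difference lay between -0.97 and -0.67, and with median of ratios scaling it was -0.78. By that scaling *Ciita* after 12 h was at -0.58 in wt and at 0.20 in *Treml4*-/- cells, so only wt showed a fall.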

How the results depend on the processing

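The 8 members' differences and calls were recomputed under each alternative. Against the 96 values, 95 kept their direction and call with a pseudocount of 0.1, 95 with the deposited log2 CPM, 95 with voom weights and 96 with no filter, and with a filter at 5 CPM, which drops *H2-DMb2*, 84 of 84 did. The members called between 12 h and 8 h in *Treml4*-/- cells numbered 2 in place of 1 with a pseudocount of 0.1, with the deposited log2 CPM, with no minimum fold change and with voom weights. Count models (the quasi-likelihood test and negative binomial Wald test) were planned and not run, since the deposited unit is log2. The replicate number as a replicate block left 96 of 96 values and calls as they were, so that *Ciita* stood at -0.70 between genotypes after 12 h with the block too. Pairs of same-numbered libraries had correlations of deviations from -0.27 to 0.46 (0.12, 0.062 and 0.41 within wt), so not every pair was over 0.1, and whether a number marks a shared animal or culture is not known. Culture as a random block changed 0 of 32, the crossed block 0 of 24, and the block within genotype changed 5 of 64. *H2-Aa* became a DEG after 8 h in wt (0.84, adjusted p = 1.9e-04, limma) and *Treml4*-/- cells (0.73, adjusted p = 4.8e-04, limma) and after 12 h in both (0.59 and 0.75, adjusted p = 0.00194 and 4.1e-04, limma), and *H2-Eb1* after 8 h in wt (0.64, adjusted p = 0.00171, limma).

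With median of ratios scaling the direction turned for *Ciita* in wt minus *Treml4*-/- after 8 h (0.051), after 8 h of LPS in wt (0.19) and *Treml4*-/- cells (0.29) and after 12 h in *Treml4*-/- cells (0.20). It turned for *H2-DMb2* in the mean of the genotypes (0.048), after 8 h in *Treml4*-/- cells (0.36) and after 12 h in wt (0.37) and *Treml4*-/- cells (0.26), for *H2-DMa* between genotypes after 12 h (0.062), and for *H2-Eb1* from 8 h to 12 h in *Treml4*-/- cells (0.035). By construction this scaling lifts all LPS values by the median shift.

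Without wt replicate 2 at every time point, wt minus *Treml4*-/- turned at M0 for *H2-Aa* (-0.32), *H2-Ab1* (-0.25), *H2-Eb1* (-0.33), *H2-DMa* (-0.20), *H2-DMb1* (-0.18), *Cd74* (-0.37) and *Ciita* (-0.028). It turned after 8 h for *H2-DMb2* (-0.038), and after 12 h for *H2-Aa* (-0.39), *H2-Ab1* (-0.14), *H2-Eb1* (-0.43), *H2-DMb2* (-0.11) and *Cd74* (-0.19). In the mean it turned for *H2-Aa* (-0.22), *H2-Ab1* (-0.078), *H2-Eb1* (-0.21), *H2-DMa* (-0.079), *H2-DMb1* (-0.14) and *Cd74* (-0.14). The LPS effect turned for *H2-DMb2* after 8 h in wt (-0.043), and its difference between genotypes after 12 h turned for *H2-Ab1* (0.12), *H2-DMb2* (-0.040) and *Cd74* (0.18). The cause was not tested.

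Leaving out 1 library at a time, wt minus *Treml4*-/- ran at M0 from -0.32 to 1.13 for *H2-Aa*, -0.25 to 1.14 for *H2-Ab1*, -0.33 to 1.16 for *H2-Eb1*, -0.20 to 0.35 for *H2-DMa*, -0.18 to 0.18 for *H2-DMb1*, -0.37 to 1.04 for *Cd74* and -0.028 to 0.27 for *Ciita*. After 8 h it ran from -0.17 to 0.23 for *H2-DMb2* and -0.20 to 0.054 for *Ciita*. After 12 h it ran from -0.39 to 0.87 for *H2-Aa*, -0.14 to 0.74 for *H2-Ab1*, -0.43 to 0.86 for *H2-Eb1*, -0.20 to 0.15 for *H2-DMa*, -0.11 to 0.14 for *H2-DMb2* and -0.19 to 0.64 for *Cd74*. In the mean it ran from -0.047 to 0.074 for *H2-DMb1* and -0.076 to 0.059 for *H2-DMb2*, and 0 to 2 members were called. The LPS effect in wt ran after 8 h from -0.10 to 1.38 for *H2-Eb1* and -0.046 to 0.092 for *H2-DMb2*, and after 12 h from -0.14 to 1.31 for *H2-Aa*, -0.50 to 0.99 for *H2-Eb1* and -0.093 to 0.27 for *H2-DMb1*. In *Treml4*-/- cells after 8 h it ran from -0.28 to 0.13 for *H2-DMb2*. From 8 h to 12 h in wt it ran from -0.88 to 0.38 for *H2-Aa*, -0.54 to 0.34 for *H2-Ab1*, -1.04 to 0.25 for *H2-Eb1* and -0.59 to 0.24 for *Cd74*. From 8 h to 12 h in *Treml4*-/- cells it ran from -0.11 to 0.14 for *H2-Aa*, -0.0097 to 0.17 for *H2-Ab1*, -0.21 to 0.14 for *H2-Eb1*, -0.34 to 0.071 for *H2-DMb2* and -0.0067 to 0.16 for *Cd74*, and 0 to 2 members were called. The difference between genotypes in the effect of 8 h ran from -0.62 to 0.83 for *H2-Aa*, -0.66 to 0.74 for *H2-Ab1*, -0.59 to 0.90 for *H2-Eb1*, -0.063 to 0.48 for *H2-DMa*, -0.10 to 0.30 for *H2-DMb2* and -0.57 to 0.84 for *Cd74*. That of 12 h ran from -0.88 to 0.56 for *H2-Aa*, -0.84 to 0.56 for *H2-Ab1*, -0.94 to 0.54 for *H2-Eb1*, -0.38 to 0.17 for *H2-DMa*, -0.043 to 0.21 for *H2-DMb2* and -0.82 to 0.59 for *Cd74*. Where a condition kept 1 library, it was assumed to vary like the others.

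Over all genes, the DEG between genotypes numbered 12 at M0, 11 after 8 h, 16 after 12 h and 50 in the mean. They ranged over 7 to 16, 5 to 15, 7 to 20 and 17 to 119 in other settings, and over 7 to 220, 8 to 599, 6 to 79 and 21 to 183 without 1 library. The 1 DEG of each interaction became 0 to 3 in other settings, and 1 to 3 at 8 h and 1 to 33 at 12 h without 1 library.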
